A study of Homo sapiens with 17 samples.

Results

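The genes described here are members of the NF-kB pathway and the cytokines and chemokines that it induces, measured in 786-O cells, which are a VHL-deficient human line from a clear cell renal carcinoma. They were chosen by gene symbol from a fixed set of 36 names, of which CXCL8 and IL8 are the same gene, and 35 genes were found among the 27315 genes of the deposited table. By role they comprise 10 chemokines (CXCL1, CXCL2, CXCL3, CXCL5, CXCL6, CXCL8, CXCL16, CX3CL1, CCL2 and CCL20), 9 cytokines (IL6, IL11, IL1A, IL1B, IL32, CSF1, CSF2, CSF3 and LIF), 5 NF-kB factors (NFKB1, NFKB2, REL, RELA and RELB), 4 inhibitors or feedback regulators (NFKBIA, NFKBIE, NFKBIZ and TNFAIP3), 3 signalling adaptors (BIRC2, BIRC3 and TRAF1) and 4 other induced genes (TNFAIP2, ICAM1, SOD2 and TNFRSF11B).

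The study sequenced polyA RNA of 786-O cells in which lentiviral CRISPR guides targeted USP37 or HIF2a, the protein encoded by EPAS1. In the USP37 experiment, guide sg9 and guide sg3 had 3 libraries each and the scrambled guide sgscr had 2. In the HIF2a experiment, guide sg6, guide sg4 and its own scrambled guide sgscr had 3 libraries each, so 17 libraries fell into 6 groups, written below as USP37_sg9, USP37_sg3, USP37_sgscr, HIF2a_sg6, HIF2a_sg4 and HIF2a_sgscr. All groups, controls included, were the same line carrying the lentiviral CRISPR vector after antibiotic selection, with no cytokine or other stimulus named. The labels give neither clones nor separate cultures, so the p-values below measure only the spread between these libraries, which may be technical.

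NF-kB factors are dimers of the Rel proteins (RELA, RELB and REL, with p50 from NFKB1 and p52 from NFKB2) that are held inactive by IkB proteins until signals from TNF or IL-1 receptors lead to IkB degradation. The released dimers bind kappa B sites and induce chemokines, cytokines and survival genes together with their own inhibitors, such as NFKBIA and TNFAIP3, which close the response. In renal tubule cells the pathway is known for inducing the neutrophil and monocyte attractants CXCL1, CXCL8 and CCL2. USP37 is a deubiquitinase that has been reported to stabilise HIF2a, and the comparisons below ask how each guide moved the pathway's transcripts and whether the USP37 and HIF2a guides moved them alike.

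The deposited values are batch-corrected, variance-stabilised expression on a log2-like scale, in which the lowest genes sit near 5.14 and all values lie between 4.85 and 20.1; differences between 2 low values are compressed and the sequencing depth is unknown. USP37 averaged 8.23 over the USP37 guides and 9.24 in USP37_sgscr, and EPAS1 averaged 9.94 over the HIF2a guides and 11.91 in HIF2a_sgscr. EPAS1 also fell by 0.72 with the USP37 guides (adjusted p = 6.6e-05). The 6 renal and 786-O markers reported here (PAX8, PAX2, CDH6, KRT8, KRT18 and VIM) were all expressed, with list means of 12.31 to 12.75 per library, whereas 8 of 10 leukocyte markers (PTPRC and CD3E among them) lay below the filter, and the other two were CD68, at 8.85 to 10.50, and CSF1R, at 6.10 to 7.36. HIF2a_sg6 libraries 2 and 3 (both 0.187) and HIF2a_sgscr library 2 (0.142) had the largest median distances per gene from the rest of their groups, against 0.0896 to 0.134 in the other 14 libraries, so the HIF2a counts are given below with and without these 3 libraries.

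Promoters of 6 of the genes that the results turn on are given first, because the kappa B sites to which NF-kB dimers bind are often found there; the part of these sequences in the values below was not tested. RefSeq promoters (GRCh38.p14, 250 bases before each start site) matched 26 of the 35 genes with 39 promoters in all. The kappa B consensus, searched on both strands with overlapping matches kept, was in 17 of these 39 promoters (43.6%), against 1828 of all 35116 promoters (5.21%). The sequence ACGTG, a form of the HIF core also searched on both strands, was in 3 of the 39 (7.69%), against 18.5% of all promoters. Other forms of the core were not searched, so these shares do not give the promoters that hold any HIF core. In the sequences below, capitals mark the kappa B consensus. CXCL1, CXCL2 and CXCL3 each carried the same unbroken stretch, which holds overlapping matches and runs from position -79 to -69 before the start site in CXCL1 and CXCL3 and from -78 to -68 in CXCL2, IL6 carried 1 match, BIRC3 carried 2, and the CXCL8 window held no match to the consensus as searched. CXCL5, not printed, held 2 overlapping matches from -91 to -81. The windows are chr4:73869143-73869392 (plus strand) for CXCL1, chr4:74099196-74099445 (minus strand) for CXCL2, chr4:74038690-74038939 (minus strand) for CXCL3, chr4:73740319-73740568 (plus strand) for CXCL8, chr7:22726950-22727199 (plus strand) for IL6 and chr11:102317234-102317483 (plus strand) for BIRC3.
CXCL1: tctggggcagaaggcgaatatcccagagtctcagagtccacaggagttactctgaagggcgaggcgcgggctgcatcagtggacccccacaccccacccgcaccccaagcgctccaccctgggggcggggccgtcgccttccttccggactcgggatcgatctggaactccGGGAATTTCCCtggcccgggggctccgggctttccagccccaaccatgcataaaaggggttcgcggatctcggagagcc
CXCL2: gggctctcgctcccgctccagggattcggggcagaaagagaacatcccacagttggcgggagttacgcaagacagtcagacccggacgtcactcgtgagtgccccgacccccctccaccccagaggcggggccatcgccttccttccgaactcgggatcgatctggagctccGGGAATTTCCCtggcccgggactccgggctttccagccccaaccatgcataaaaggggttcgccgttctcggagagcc
CXCL3: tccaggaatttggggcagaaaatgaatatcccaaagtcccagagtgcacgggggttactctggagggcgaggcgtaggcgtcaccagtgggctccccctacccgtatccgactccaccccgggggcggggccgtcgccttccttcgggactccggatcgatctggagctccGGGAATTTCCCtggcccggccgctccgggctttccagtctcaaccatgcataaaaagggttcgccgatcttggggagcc
CXCL8: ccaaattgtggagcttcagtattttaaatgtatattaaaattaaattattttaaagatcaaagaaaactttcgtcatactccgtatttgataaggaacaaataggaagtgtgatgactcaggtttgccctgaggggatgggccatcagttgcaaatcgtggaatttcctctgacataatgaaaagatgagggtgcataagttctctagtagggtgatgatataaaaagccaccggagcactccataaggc
IL6: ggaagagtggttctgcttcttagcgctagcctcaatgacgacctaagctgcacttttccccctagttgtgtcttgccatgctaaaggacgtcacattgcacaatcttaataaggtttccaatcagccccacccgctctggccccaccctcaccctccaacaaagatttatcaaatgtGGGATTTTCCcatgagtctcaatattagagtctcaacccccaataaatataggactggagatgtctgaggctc
BIRC3: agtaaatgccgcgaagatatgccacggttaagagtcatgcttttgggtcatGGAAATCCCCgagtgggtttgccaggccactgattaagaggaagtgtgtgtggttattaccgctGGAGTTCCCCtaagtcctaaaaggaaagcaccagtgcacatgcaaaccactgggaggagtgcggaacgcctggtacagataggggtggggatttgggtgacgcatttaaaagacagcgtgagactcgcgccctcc
A match is a run of letters and says nothing about binding in these cells.

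Of the 35 genes, 30 passed the filter on low values (a mean of at least 6.14) and were tested with limma among 12484 genes. A gene was called at a Benjamini-Hochberg adjusted p under 0.05 over all genes tested. The other 5 were near the floor. Group means lay between 5.14 and 5.47 for CXCL6, between 5.10 and 5.50 for IL1A, between 5.12 and 5.34 for CSF3, between 5.44 and 6.41 for IL1B and between 5.37 and 6.47 for CXCL16. IL1A and IL1B, cytokines that commonly start NF-kB signalling, were thus low in every group. IL1B, which was tested only in the fit without a filter, had 5.80, 6.07 and 5.87 in HIF2a_sg6, 6.40, 6.54 and 6.31 in HIF2a_sg4, and 5.56, 5.36 and 5.39 in HIF2a_sgscr; the HIF2a guide libraries lay above their controls there, near the floor where values are least certain. Without the filter IL1B was called higher in the mean of the HIF2a guides (0.73 ± 0.13, limma, adjusted p = 0.000407), as was CXCL16 (0.38 ± 0.13, adjusted p = 0.0481), and none of the 5 was called with the USP37 guides (adjusted p of at least 0.13). In bulk libraries, a change in the share of cells that express a gene and a change in its RNA per cell cannot be told apart.

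USP37 guides raised some of the secreted products of the pathway and lowered others. IL6, CSF2 and CXCL1 were higher and CCL20, IL32 and CXCL5 were lower, while BIRC3, RELB, NFKB2 and SOD2 were lower. In the mean of both USP37 guides against USP37_sgscr, 8 of the 30 genes were called higher, against 22.4% of all genes tested, and 10 lower, against 21.9%. Both directions together came to 60.0%, against 44.3%. The median difference was -0.05 on the log2 scale over the 30 genes and 0.01 over all genes, so the group as a whole had no common direction. The USP37 control has 2 libraries: without USP37_sgscr replicate 2 the calls numbered 12 (29.5% of all genes were then called), and CXCL2, ICAM1, IL11, NFKB2, NFKBIA and REL were the ones lost.

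Among the chemokines, CXCL1, a ligand of CXCR2 that attracts neutrophils, had 13.33, 13.45 and 13.51 in USP37_sg9, 13.18, 13.34 and 13.29 in USP37_sg3, and 12.08 and 12.28 in USP37_sgscr. All 6 guide libraries lay above both control libraries, and the difference was 1.17 ± 0.14 (SE; limma, adjusted p = 1.61e-06). CXCL8, the main human neutrophil attractant, had 12.78, 13.04 and 13.16 in USP37_sg9, 12.32, 12.43 and 12.29 in USP37_sg3, and 12.15 and 12.12 in USP37_sgscr. Its guide and control libraries did not overlap, but the guides differed in size: 0.86 with sg9 (adjusted p = 1.37e-06) and 0.21 with sg3 (adjusted p = 0.111), and the difference between the guides was itself called (0.65, adjusted p = 5.19e-05). CXCL2 and CXCL3, close relatives of CXCL1, were called higher in the mean of the guides (0.43 and 0.47), with sg9 at 0.66 and 0.69 and sg3, not called, at 0.21 and 0.25. Of the 31-base stretches of CXCL1 transcripts, 15.5% also occur in CXCL2 and 2.81% in CXCL3, so reads may have been shared between these genes.

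CXCL5, another CXCR2 ligand, went the opposite way with 12.73, 12.90 and 12.97 in USP37_sg9, 12.88, 12.83 and 12.79 in USP37_sg3, and 13.43 and 13.38 in USP37_sgscr. Every guide library was below both controls, a difference of -0.55 ± 0.08 (adjusted p = 2.43e-05). CCL20, the ligand of CCR6, had 5.96, 5.58 and 6.12 in USP37_sg9, 5.89, 5.82 and 5.57 in USP37_sg3, and 7.20 and 6.56 in USP37_sgscr, again with no overlap (-1.06 ± 0.19, adjusted p = 0.000123). Its values lie close to the floor, where differences are compressed. CCL2, the monocyte attractant that binds CCR2, had 7.09, 6.59 and 6.83 in USP37_sg9, 6.44, 6.66 and 6.93 in USP37_sg3, and 7.07 and 6.76 in USP37_sgscr. The groups overlapped and the difference of -0.16 ± 0.20 was not called (adjusted p = 0.556), nor was that of CX3CL1 (0.10, adjusted p = 0.523).

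**Figure D1:**
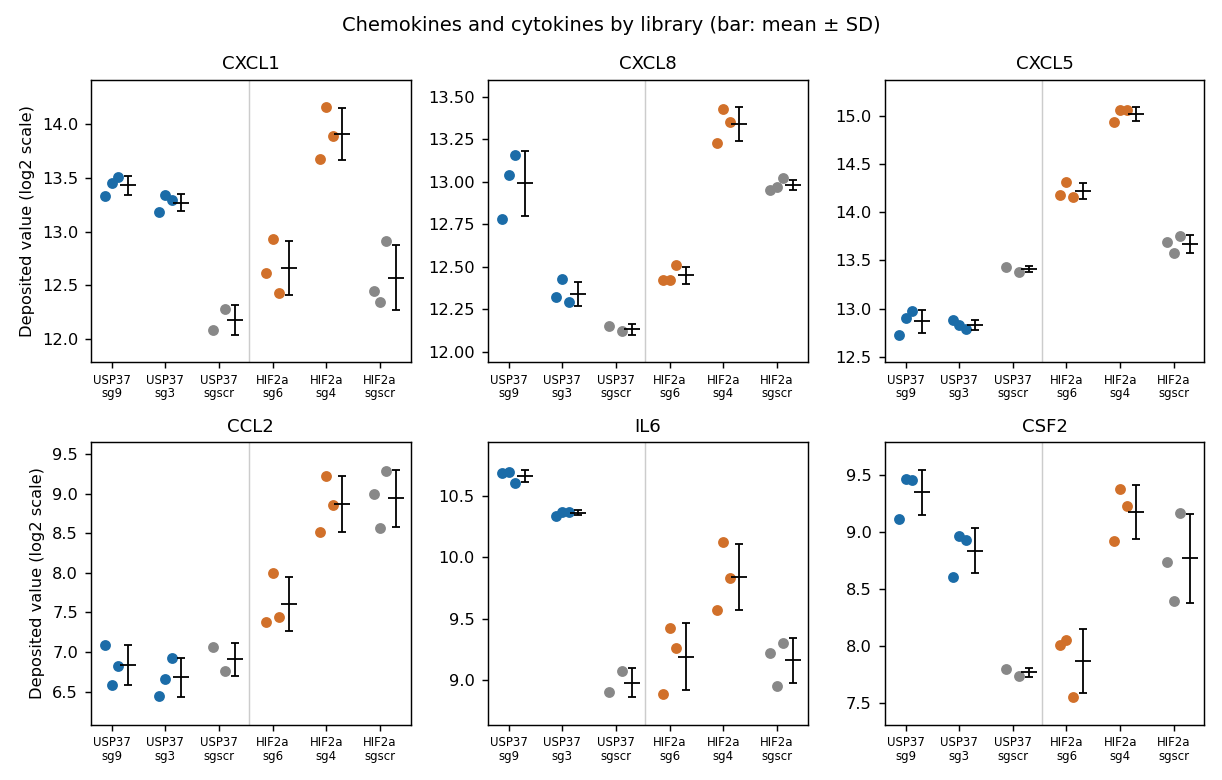
Deposited values (log2 scale, y axis) of 6 chemokines and cytokines in each library, by group (x axis: the USP37 experiment left of the line, the HIF2a experiment right of it); points are libraries and bars the group mean ± SD. IL6 and CSF2 stand above USP37_sgscr with both USP37 guides, and CXCL1, CXCL8, CCL2 and CSF2 are lower in HIF2a_sg6 than in HIF2a_sg4.

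The cytokines held the largest increases. IL6, which signals through IL6R and gp130 and drives the acute phase response, had 10.68, 10.69 and 10.60 in USP37_sg9, 10.33, 10.37 and 10.37 in USP37_sg3, and 8.90 and 9.07 in USP37_sgscr. The lowest guide library (10.33) was above the higher control (9.07), and the difference was 1.52 ± 0.13 (adjusted p = 2.39e-08). CSF2 (GM-CSF), a growth factor of granulocytes and macrophages, had 9.12, 9.47 and 9.46 in USP37_sg9, 8.61, 8.97 and 8.93 in USP37_sg3, and 7.80 and 7.74 in USP37_sgscr. Here too the libraries stood apart, with a difference of 1.32 ± 0.17 (adjusted p = 4.64e-06), and sg9 stood above sg3 by 0.51 (adjusted p = 0.0288). IL32, a cytokine with no known rodent counterpart, fell: it had 10.76, 10.47 and 10.70 in USP37_sg9, 10.63, 10.51 and 10.54 in USP37_sg3, and 11.22 and 11.27 in USP37_sgscr, a difference of -0.64 ± 0.10 (adjusted p = 4.07e-05). IL11, of the IL6 family, was called higher in the mean of the guides at 0.60, with sg9 at 0.82 and sg3, not called, at 0.39. CSF1, the macrophage growth factor, and LIF, another IL6 family member, were not called (-0.05 and 0.03).

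None of the 5 NF-kB factors was called higher with limma, against 22.4% of all genes, and 3 were called lower, against 21.9%. At an unadjusted p under 0.05 there were 0 higher and 4 lower, a threshold for which no share of all genes is given. RELA, the main transactivating subunit of the canonical pathway, had 10.37, 10.23 and 10.29 in USP37_sg9, 10.25, 10.40 and 10.32 in USP37_sg3, and 10.11 and 10.23 in USP37_sgscr. The control libraries were at or below every guide library, yet the difference of 0.14 ± 0.09 was not called (adjusted p = 0.186). RELB, the partner of p52 in the noncanonical pathway, had 7.50, 7.59 and 7.71 in USP37_sg9, 7.53, 7.54 and 7.29 in USP37_sg3, and 8.05 and 7.99 in USP37_sgscr, all guide libraries below both controls (-0.49 ± 0.11, adjusted p = 0.00106). NFKB2, the precursor of p52, was lower too, with 9.58, 9.48 and 9.44 in USP37_sg9, 9.49, 9.38 and 9.29 in USP37_sg3, and 9.73 and 9.77 in USP37_sgscr (-0.31 ± 0.09, adjusted p = 0.00902); this call was lost when either control library was left out. REL, best known from lymphocytes, had 8.01, 7.97 and 7.57 in USP37_sg9, 8.52, 8.66 and 8.30 in USP37_sg3, and 9.11 and 8.78 in USP37_sgscr. The sg9 libraries were the lowest of the 3 groups, and the mean difference of -0.77 ± 0.20 (adjusted p = 0.00344) was -1.09 with sg9 and -0.45 with sg3. NFKB1, the precursor of p50, had 10.01, 9.72 and 9.76 in USP37_sg9, 10.02, 10.02 and 10.09 in USP37_sg3, and 10.14 and 10.14 in USP37_sgscr; the libraries stood apart but the mean difference of -0.20 ± 0.09 was not called (adjusted p = 0.0707), while that with sg9 alone was (-0.31, adjusted p = 0.014).

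The inhibitors differed less. NFKBIA (IkB alpha), which binds RELA dimers in the cytoplasm, had 11.15, 10.80 and 10.85 in USP37_sg9, 10.56, 10.47 and 10.60 in USP37_sg3, and 11.04 and 10.97 in USP37_sgscr. The sg3 libraries were below both controls while sg9 overlapped them, and the mean difference of -0.27 ± 0.09 (adjusted p = 0.0199) was lost without either control library (adjusted p = 0.156 and 0.072). TNFAIP3 (A20), the ubiquitin-editing enzyme that ends TNF signalling, had 8.95, 8.98 and 9.02 in USP37_sg9, 8.77, 9.03 and 8.54 in USP37_sg3, and 8.94 and 9.04 in USP37_sgscr. These groups overlapped and the difference was not called (-0.10 ± 0.13, adjusted p = 0.547). NFKBIZ, a nuclear IkB protein, and NFKBIE, IkB epsilon, were not called either, at 0.02 and -0.05. NFKBIE nevertheless differed between the guides, by 0.61 (adjusted p = 0.000356), with sg9, not called, at 0.25 and sg3, called lower, at -0.36 against the control.

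BIRC3 (cIAP2), a ubiquitin ligase of TNF receptor complexes and itself an NF-kB target, showed the largest change of all 30 genes with the USP37 guides. It had 10.48, 10.37 and 10.20 in USP37_sg9, 10.48, 10.21 and 10.03 in USP37_sg3, and 12.16 and 12.17 in USP37_sgscr. The highest guide library (10.48) was far below the lower control (12.16), and the difference was -1.87 ± 0.13 (adjusted p = 1.75e-09). Its paralog and chromosome 11 neighbour BIRC2 (cIAP1) had 10.15, 10.24 and 10.35 in USP37_sg9, 10.17, 10.19 and 10.16 in USP37_sg3, and 10.25 and 10.19 in USP37_sgscr and was not called (-0.01, limma, adjusted p = 0.914). TRAF1, an adaptor that binds these proteins, was not called at 0.20.

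Among the other induced genes, TNFRSF11B (osteoprotegerin), the decoy receptor for RANKL, had 12.21, 12.35 and 12.50 in USP37_sg9, 12.17, 12.27 and 12.27 in USP37_sg3, and 11.07 and 10.99 in USP37_sgscr. The lowest guide library (12.17) was above the higher control (11.07), a difference of 1.26 ± 0.10 (adjusted p = 9.14e-09). SOD2, the mitochondrial superoxide dismutase, fell: it had 13.99, 13.95 and 13.83 in USP37_sg9, 13.23, 13.23 and 13.14 in USP37_sg3, and 14.43 and 14.41 in USP37_sgscr, a difference of -0.86 ± 0.09 (adjusted p = 3.77e-07). Both guides were below the control, sg9 by less than sg3, at -0.50 and -1.22 (difference between the guides 0.73, adjusted p = 2.31e-05). ICAM1, the leukocyte adhesion molecule, was lower by a smaller amount (-0.32, adjusted p = 0.00373, lost without USP37_sgscr replicate 2). TNFAIP2 was not called in the mean of the guides (-0.17) or with sg9 (-0.05), and was lower with sg3 (-0.30, adjusted p = 0.0262).

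**Figure D2:**
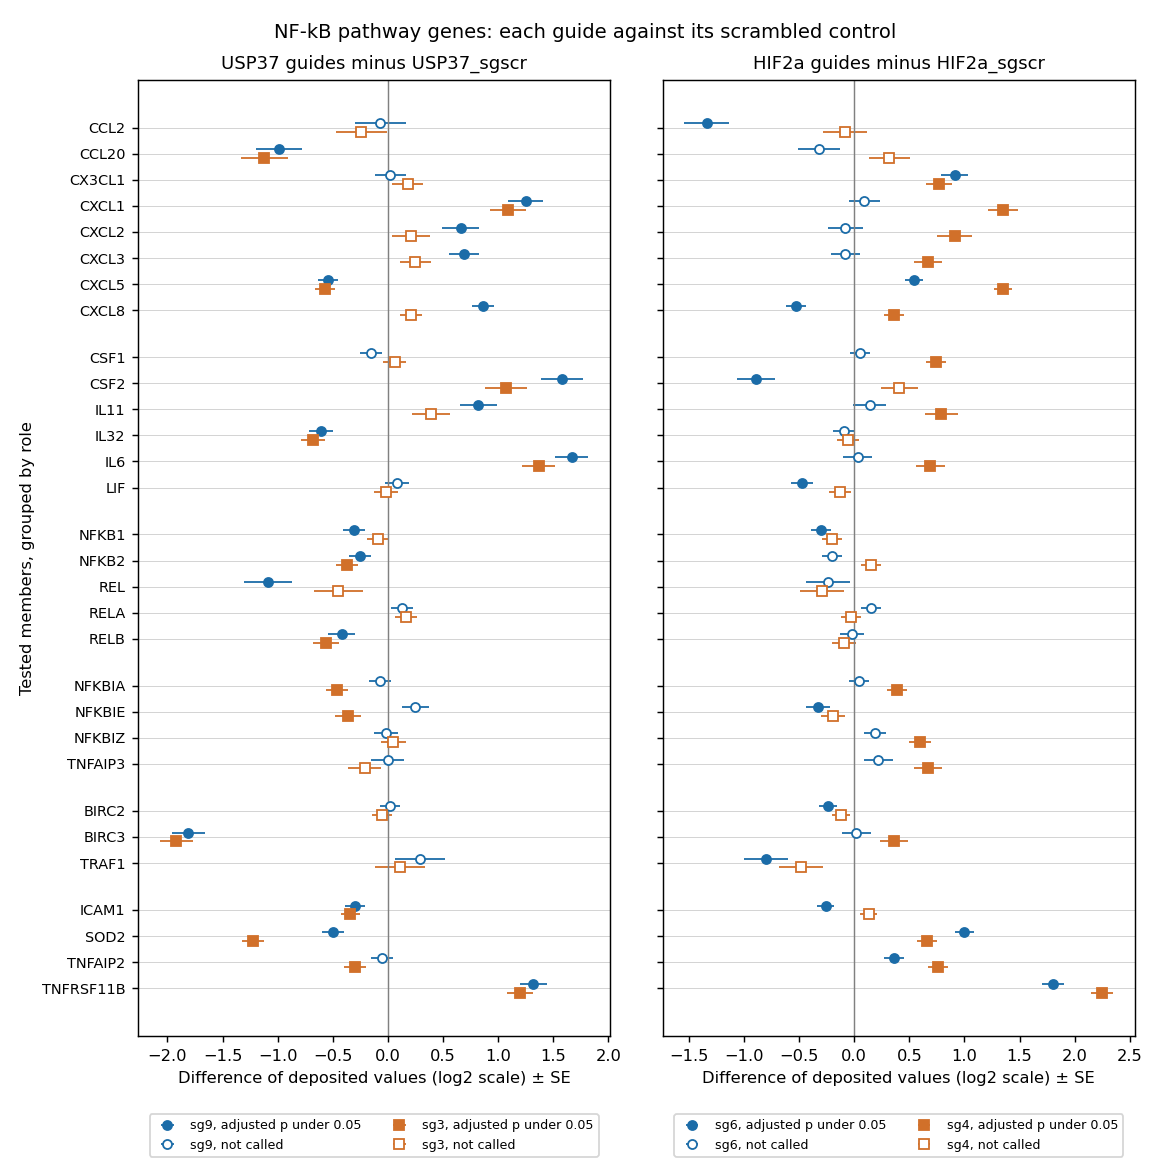
Difference of each guide from its own scrambled control (x axis, log2 scale, ± SE) for the 30 tested genes (y axis, ordered by role); filled symbols have an adjusted p under 0.05. The USP37 guides (left) run close together for BIRC3, IL6 and TNFRSF11B, whereas the HIF2a guides (right) part for CCL2, CSF2, CXCL1 and CXCL8.

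Guide by guide, 18 genes were called with sg9 (8 higher, against 24.6% of all genes, and 10 lower, against 23.2%, with 47.8% in either direction) and 15 with sg3 (4 higher, against 16.8%, and 11 lower, against 18.4%, with 35.2% in either direction). These comparisons share the control libraries. Set directly against sg3, sg9 was higher for 9 of the 30 genes (16.6% of all genes) and lower for 1 (14.2%), which together is 33.3% against 30.8% of all genes and hence close to the background. The largest of these differences were SOD2 (0.73), CXCL8 (0.65), NFKBIE (0.61) and, as the 1 lower gene, REL (-0.65). This count ranged from 5 to 11 when single libraries were left out.

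HIF2a guides raised TNFRSF11B, CXCL5, CX3CL1, SOD2 and TNFAIP2, and the guides parted over most of the chemokines and cytokines. In the mean of both HIF2a guides against HIF2a_sgscr, 14 of the 30 genes were called higher, against 16.1% of all genes tested, and 6 lower, against 14.5%. Both directions together came to 66.7%, against 30.6%. The median difference was 0.13 over the 30 genes and -0.00 over all genes. Without the 3 libraries far from their groups, 14 were called (10 higher and 4 lower, against 24.7% of all genes), and the calls lost were BIRC2, CXCL2, CXCL3, IL6, NFKBIA and NFKBIE. In that fit HIF2a_sg6 is a single library, assumed to vary like the other groups.

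TNFRSF11B had the largest difference of the 30 genes in the HIF2a experiment. It had 12.36, 12.64 and 12.41 in HIF2a_sg6, 12.71, 13.01 and 13.04 in HIF2a_sg4, and 10.55, 10.67 and 10.79 in HIF2a_sgscr. The lowest guide library (12.36) was above the highest control (10.79), and the difference was 2.02 ± 0.09 (adjusted p = 1.69e-13). SOD2 had 14.79, 14.82 and 15.10 in HIF2a_sg6, 14.68, 14.53 and 14.46 in HIF2a_sg4, and 13.99, 13.84 and 13.86 in HIF2a_sgscr, with no overlap and a difference of 0.83 ± 0.08 (adjusted p = 4.17e-08). TNFAIP2, a TNF-induced gene, had 12.53, 12.43 and 12.72 in HIF2a_sg6, 12.87, 13.02 and 13.02 in HIF2a_sg4, and 12.10, 12.28 and 12.24 in HIF2a_sgscr. All guide libraries were above the controls, by 0.56 ± 0.08 (adjusted p = 8.92e-06); its chromosome, 14, had a median difference of 0.12 over 405 genes. ICAM1 was not called (-0.06), with sg6, called lower, at -0.26 and sg4, not called, at 0.13.

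**Figure D3:**
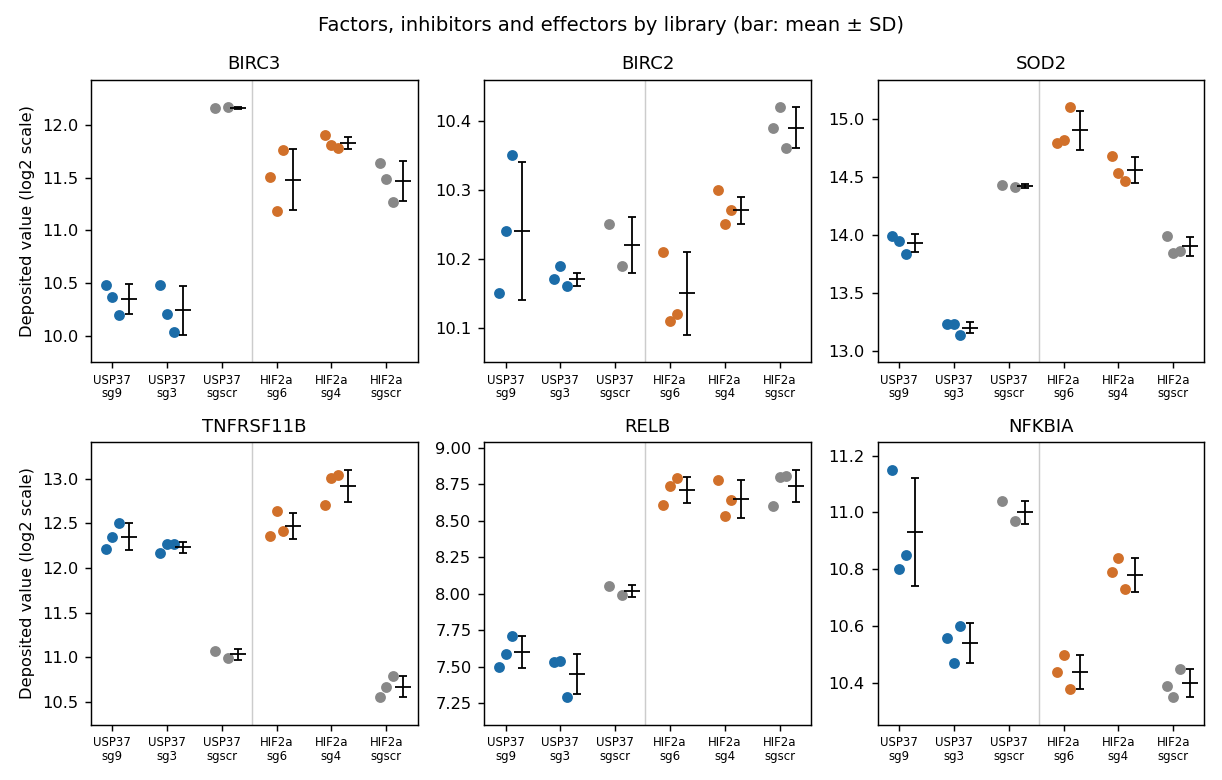
Deposited values (log2 scale, y axis) of BIRC3, BIRC2, SOD2, TNFRSF11B, RELB and NFKBIA in each library, by group (x axis, as in the plot of chemokines and cytokines); points are libraries and bars the group mean ± SD. BIRC3 averages 10.35 in USP37_sg9, 10.24 in USP37_sg3 and 12.16 in USP37_sgscr, and SOD2 is below its control with the USP37 guides and above it with the HIF2a guides.

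CXCL5 and CX3CL1 were the chemokines raised with either HIF2a guide. CXCL5 had 14.18, 14.31 and 14.16 in HIF2a_sg6, 14.94, 15.06 and 15.06 in HIF2a_sg4, and 13.69, 13.58 and 13.75 in HIF2a_sgscr. The 3 groups did not overlap, with sg4 above sg6 above the control, and the mean difference was 0.94 ± 0.07 (adjusted p = 1.2e-09). CX3CL1 (fractalkine), a membrane-bound ligand of CX3CR1, had 9.28, 9.52 and 9.53 in HIF2a_sg6, 9.12, 9.36 and 9.45 in HIF2a_sg4, and 8.38, 8.50 and 8.74 in HIF2a_sgscr, a difference of 0.84 ± 0.11 (adjusted p = 2.67e-06). Both guides lay above the control to a like extent here, at 0.91 with sg6 and 0.77 with sg4.

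The other chemokines depended on the guide. CXCL1 had 12.61, 12.93 and 12.43 in HIF2a_sg6, 13.68, 14.16 and 13.89 in HIF2a_sg4, and 12.45, 12.34 and 12.91 in HIF2a_sgscr. Only sg4 stood clear of the control, so that the mean difference of 0.72 ± 0.12 (adjusted p = 9.12e-05) joined 0.09 with sg6 (adjusted p = 0.668) and 1.35 with sg4 (adjusted p = 1.86e-07). CXCL8 had 12.42, 12.42 and 12.51 in HIF2a_sg6, 13.23, 13.43 and 13.35 in HIF2a_sg4, and 12.95, 12.97 and 13.02 in HIF2a_sgscr. The sg6 libraries were below the control and the sg4 libraries above it, with differences of -0.53 (adjusted p = 0.000119) and 0.36 (adjusted p = 0.00557). The mean over the guides, -0.09 ± 0.08, was not called (adjusted p = 0.433) and hides this split. CCL2 had 7.38, 8.00 and 7.44 in HIF2a_sg6, 8.52, 9.22 and 8.85 in HIF2a_sg4, and 8.99, 8.57 and 9.28 in HIF2a_sgscr. The sg6 libraries were all below the control and the sg4 libraries overlapped it, with differences of -1.34 (adjusted p = 3.16e-05) and -0.08 (adjusted p = 0.826). The mean of the guides differed by -0.71 ± 0.18 (adjusted p = 0.00388), but within replicate number 2 the difference was 0.04. CXCL2 and CXCL3 were not called with sg6 (both -0.08) and were higher with sg4 (0.91 and 0.67). CCL20 had 6.27, 6.18 and 6.22 in HIF2a_sg6, 6.79, 7.05 and 6.76 in HIF2a_sg4, and 6.74, 6.15 and 6.75 in HIF2a_sgscr. Its guides lay on either side of the control mean, neither was called against it (-0.32 with sg6 and 0.32 with sg4), and the difference between the guides was -0.64 (adjusted p = 0.0325), a call lost when any single library of either guide was left out.

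IL6 had 8.89, 9.42 and 9.26 in HIF2a_sg6, 9.57, 10.12 and 9.83 in HIF2a_sg4, and 9.22, 8.95 and 9.30 in HIF2a_sgscr. As with CXCL1, sg6 overlapped the control (0.03, adjusted p = 0.887) and sg4 stood above it (0.69, adjusted p = 0.000485). The mean difference of 0.36 ± 0.11 (adjusted p = 0.0211) was lost without the 3 libraries named above. IL11 and CSF1 followed the same pattern, with sg6, not called, at 0.14 and 0.05 and sg4 at 0.79 and 0.74. CSF2 was lower with sg6 (-0.89, adjusted p = 0.000453) and not called with sg4 (0.41), and LIF was lower with sg6 (-0.47) and not called with sg4 (-0.13). IL32 was not called with either guide, at -0.09 with sg6 and -0.06 with sg4.

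The NF-kB factors moved little with the HIF2a guides, in whose mean 30.6% of all genes tested were called. NFKB1 was the only one of the 5 called, with 9.93, 10.13 and 10.11 in HIF2a_sg6, 10.18, 10.13 and 10.16 in HIF2a_sg4, and 10.32, 10.43 and 10.31 in HIF2a_sgscr and a difference of -0.25 ± 0.08 (limma, adjusted p = 0.018). All guide libraries were below the controls, but guide by guide it was called with sg6 and not with sg4. RELA had 10.42, 10.64 and 10.41 in HIF2a_sg6, 10.33, 10.27 and 10.31 in HIF2a_sg4, and 10.27, 10.32 and 10.41 in HIF2a_sgscr and RELB had 8.61, 8.74 and 8.79 in HIF2a_sg6, 8.78, 8.53 and 8.64 in HIF2a_sg4, and 8.60, 8.80 and 8.81 in HIF2a_sgscr. Both overlapped their controls, and neither difference was called (0.06 ± 0.07, adjusted p = 0.569, and -0.05 ± 0.09, adjusted p = 0.712). REL had 7.99, 7.11 and 8.17 in HIF2a_sg6, 7.65, 7.63 and 7.83 in HIF2a_sg4, and 8.21, 7.99 and 7.80 in HIF2a_sgscr and NFKB2 had 9.97, 10.21 and 10.14 in HIF2a_sg6, 10.35, 10.46 and 10.52 in HIF2a_sg4, and 10.23, 10.28 and 10.40 in HIF2a_sgscr. Neither was called (-0.27 ± 0.17, adjusted p = 0.26, and -0.03 ± 0.08, adjusted p = 0.843).

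All 4 inhibitors were called in the mean of the HIF2a guides (3 higher and 1 lower), against 30.6% of all genes tested. None was called with both guides. NFKBIA, NFKBIZ and TNFAIP3 were called higher with sg4 and not called with sg6, and NFKBIE was called lower with sg6 and not called with sg4. NFKBIA and NFKBIE were lost with a replicate block (limma, adjusted p = 0.0644 and 0.0741). TNFAIP3 had 9.89, 9.86 and 10.44 in HIF2a_sg6, 10.39, 10.60 and 10.54 in HIF2a_sg4, and 9.79, 9.95 and 9.79 in HIF2a_sgscr, with the sg4 libraries above all controls and sg6 overlapping them (0.44 ± 0.12, adjusted p = 0.00548). NFKBIA had 10.44, 10.50 and 10.38 in HIF2a_sg6, 10.79, 10.84 and 10.73 in HIF2a_sg4, and 10.39, 10.35 and 10.45 in HIF2a_sgscr, again with only sg4 apart from the control. Its mean difference of 0.21 ± 0.08 (adjusted p = 0.0415) became 0.09 (adjusted p = 0.411) once the median of each chromosome was taken out. NFKBIZ was higher (0.39, adjusted p = 0.000887) although its chromosome, 3, had a median difference of -0.22 over 695 genes, and NFKBIE was lower (-0.26, adjusted p = 0.0394). Of the adaptors, TRAF1 and BIRC2 were lower (-0.64, adjusted p = 0.00861, and -0.18, adjusted p = 0.0466), and the BIRC2 call was lost with a replicate block (adjusted p = 0.0873), without the 3 libraries and in most fits that left out 1 library. Both TRAF1 and BIRC2 were called lower with sg6 and not called with sg4. BIRC3 was not called in the mean (0.19) or with sg6 (0.02), and was higher with sg4 (0.36, limma, adjusted p = 0.0476).

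Guide by guide, 14 genes were called with sg6 (5 higher, against 15.2% of all genes, and 9 lower, against 13.8%, with 29.0% in either direction) and 16 with sg4, all of them higher (against 13.2% higher, 12.1% lower and 25.3% in either direction). These comparisons share HIF2a_sgscr. Without the 3 libraries far from their groups, 10 were called with sg6 (5 higher and 5 lower, against 16.2% of all genes) and 16 with sg4 (all higher, against 25.3%). With sg4, 2 genes were lower at an unadjusted p under 0.05, whereas the shares of all genes given here are at an adjusted p. The direct comparison needs no control. HIF2a_sg6 was lower than HIF2a_sg4 for 19 of the 30 genes, against 4.36% of all genes tested, and higher for 1, against 4.86%. Both directions together came to 66.7%, against 9.22%, and the median difference was -0.40 over the 30 genes and -0.01 over all genes. By role, 7 of 8 chemokines, 5 of 6 cytokines, 3 of 4 inhibitors and 3 of 4 other induced genes were lower with sg6, as was 1 of 5 factors (NFKB2), and no adaptor was called (1, BIRC3, was lower at an unadjusted p under 0.05); the 1 gene higher with sg6 was SOD2 (0.34). Among them CSF2 had 8.01, 8.05 and 7.55 in HIF2a_sg6, 8.92, 9.38 and 9.23 in HIF2a_sg4, and 8.74, 8.40 and 9.17 in HIF2a_sgscr, so the sg4 libraries overlapped the control and the sg6 libraries lay below both other groups. The largest differences were those of CSF2 (-1.30 ± 0.17, adjusted p = 4.74e-05), CCL2 (-1.26 ± 0.20, adjusted p = 0.000442) and CXCL1 (-1.25 ± 0.14, adjusted p = 6.95e-06). CXCL2 (-0.99), CXCL8 (-0.89), CXCL5 (-0.80) and CXCL3 (-0.75) followed. For each of these 7 genes the libraries of the guides did not overlap.

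**Figure D4:**
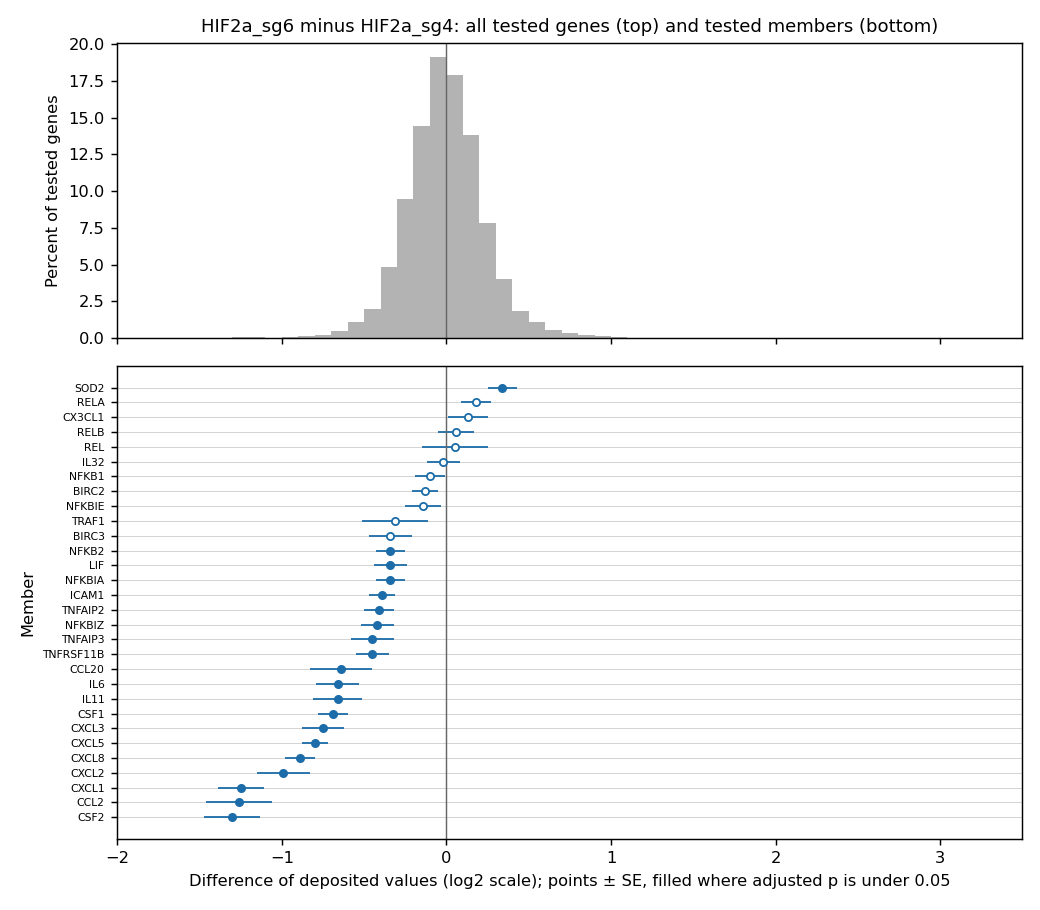
HIF2a_sg6 minus HIF2a_sg4 (x axis, log2 scale): the top panel gives the percentage of all tested genes per 0.1 unit, the bottom panel the 30 tested genes of the pathway ± SE, filled where the adjusted p is under 0.05. The 20 called genes of the pathway lie between -1.30 and 0.34, 19 of them below 0.

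This comparison rests partly on single libraries. Without HIF2a_sg4 replicate 2 the count was 11, against 4.01% of all genes, all lower. Without the 3 libraries far from their groups, which leaves 1 library of sg6, it was 15, all lower, against 3.31%. The targeted transcript also differed between the guides: EPAS1 averaged 10.34 ± 0.20 in HIF2a_sg6 and 9.54 ± 0.14 in HIF2a_sg4 (SD, n = 3 each; 0.81, adjusted p = 0.000154), against 11.91 in HIF2a_sgscr. Its part in the differences between the guides was not tested.

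When the effect of the HIF2a guides was subtracted from that of the USP37 guides, 4 of the 30 genes were called higher (19.6% of all genes) and 13 lower (19.0%), together 56.7% against 38.6% of all genes. BIRC3, called with the USP37 guides and not in the mean of the HIF2a guides, had a difference of effects of -2.06 ± 0.17 (adjusted p = 1.04e-08). CSF2 (1.56 ± 0.23, adjusted p = 1.89e-05) and IL6 (1.16 ± 0.18, adjusted p = 2.74e-05) stood highest on the USP37 side. SOD2 was lower with the USP37 guides and higher with the HIF2a guides (-0.86 and 0.83, difference -1.69, adjusted p = 1.11e-09). CXCL5 split the same way (-0.55 and 0.94, difference -1.50, adjusted p = 1.5e-09), and so did NFKBIA with smaller values (-0.27 and 0.21, difference -0.48, adjusted p = 0.00318), whose separate calls were each lost under the settings named above.

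Called higher in both experiments were 6 genes, CXCL1, CXCL2, CXCL3, IL6, IL11 and TNFRSF11B, which is 6 of the 8 called higher with the USP37 guides and 6 of the 14 called higher with the HIF2a guides. Of all genes tested, 3.65% were called higher in both, against these 6 of 30. Only TNFRSF11B was called higher with every guide of both experiments. CXCL1, CXCL2, CXCL3, IL6 and IL11 were called with HIF2a_sg4 and not with HIF2a_sg6. CXCL2, CXCL3 and IL11 were called with USP37_sg9 and not with USP37_sg3. With a replicate block the call of CXCL3 with the HIF2a guides was lost (adjusted p = 0.0757). None of the 30 genes was called lower in both, against 4.77% of all genes. TNFRSF11B, higher in both, rose more with the HIF2a guides (1.26 and 2.02, difference -0.76, adjusted p = 0.000183). For CXCL1, CXCL2, CXCL3 and IL11 the difference of effects was not called, at 0.45, 0.02, 0.17 and 0.14 with SEs of 0.17 to 0.21, which does not show that the effects are equal.

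**Figure D5:**
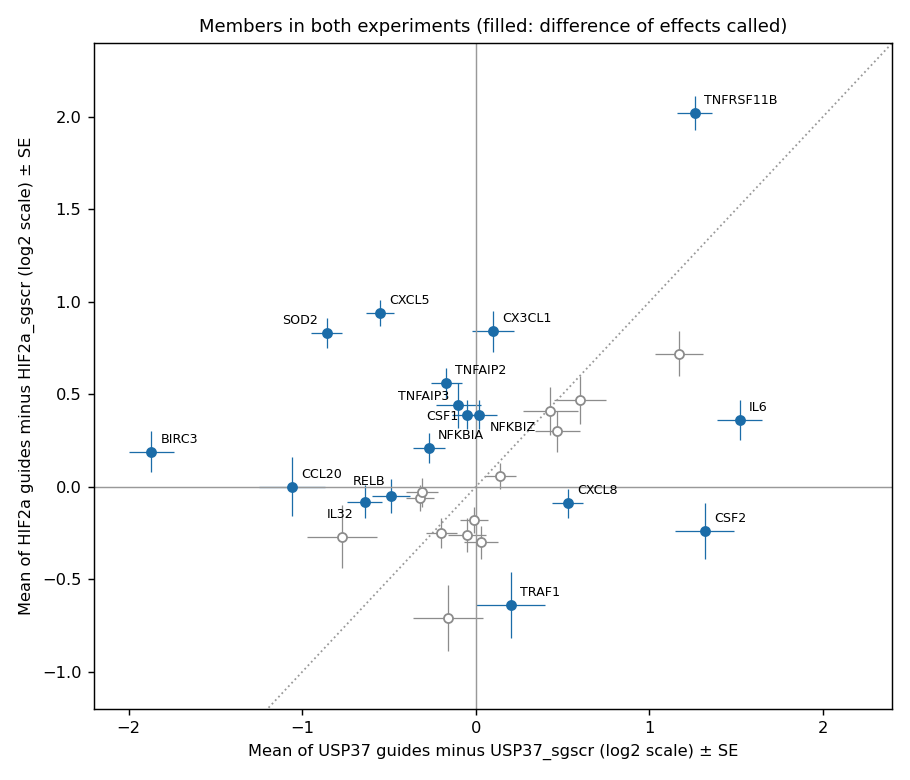
Mean difference of the USP37 guides from USP37_sgscr (x axis) and of the HIF2a guides from HIF2a_sgscr (y axis) for the 30 tested genes (log2 scale, ± SE); filled and named genes were called in the difference of effects, and the dotted line marks equal effects. SOD2 and CXCL5 lie in the quadrant lower with the USP37 guides and higher with the HIF2a guides, and BIRC3 lies far to the left near 0 on the y axis.

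The scrambled controls of the experiments were not alike in these genes. USP37_sgscr differed from HIF2a_sgscr for 16 of the 30 genes (5 higher, against 20.1% of all genes, and 11 lower, against 20.4%), together 53.3% against 40.5%. CCL2 was the most different, with 7.07 and 6.76 in USP37_sgscr and 8.99, 8.57 and 9.28 in HIF2a_sgscr (-2.03 ± 0.23, adjusted p = 9.52e-07), followed by CSF2 (-1.0), REL (0.95), LIF (-0.88) and TRAF1 (-0.87). SOD2 and BIRC3 were higher in USP37_sgscr (0.53 and 0.70), and CXCL8 was lower (-0.85). Each effect above was measured against its own control, and so shares those libraries with this comparison; an effect of the guides and a shift of the control cannot be told apart from these libraries. Side by side, the difference of effects and the difference between the controls were -1.69 and 0.53 for SOD2 and -2.06 and 0.70 for BIRC3. They were 1.56 and -1.0 for CSF2 and 0.84 and -0.87 for TRAF1. For CXCL8 they were 0.62 and -0.85, and for NFKBIA -0.48 and 0.61. Among the genes set side by side, the controls differed by more than the effects did in TRAF1, CXCL8 and NFKBIA. All of these had a control difference of the sign that would give the difference of effects, which other genes did not. Of the 20 genes called with the HIF2a guides, the controls differed with the sign that would give the call in 6. They differed with the other sign in 3 (CXCL5, TNFAIP2 and TNFAIP3) and were not called in 11. For the 18 called with the USP37 guides these counts were 6, 5 (CXCL5, ICAM1, NFKB2, RELB and TNFRSF11B) and 7.

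Beyond these genes, a list of 80 receptors, kinases, ubiquitin enzymes, ligands and further targets of the pathway had 61 tested genes. With the USP37 guides 13 of them were called higher and 21 lower (55.7%, against 44.3% of all genes), and the largest changes were at the receptors: IL1R1, the signalling IL-1 receptor, averaged 9.66 with the guides and 11.71 in the control (-2.05 ± 0.14, adjusted p = 1.19e-09), and IL1R2, the IL-1 decoy receptor, 7.13 and 8.98 (-1.85 ± 0.14, adjusted p = 2.7e-09). TNFSF10 (TRAIL, -1.39), TNFAIP8 (-1.19) and BCL3, a nuclear IkB protein that binds p50 and p52 (-1.0), were lower as well. With the HIF2a guides 14 were called higher and 13 lower (44.3%, against 30.6%). IL18, an IL-1 family cytokine, averaged 9.07 with the guides and 6.42 in the control (2.65 ± 0.11, adjusted p = 6.31e-14). PTGS2 (COX-2) was lower (-1.49), the adhesion molecule VCAM1 and the IL6 receptor IL6R were higher (1.12 and 0.75), and the kinase IRAK1, which acts below the IL-1 receptor, was lower (-0.62). Of these last genes, VCAM1, IL6R and IRAK1 had the opposite sign with the USP37 guides (-0.86, -0.58 and 0.80). The IL6R call with the USP37 guides was lost without USP37_sgscr replicate 2. USP37_sgscr minus HIF2a_sgscr was -0.72 for VCAM1, 1.10 for IL6R and -1.13 for IRAK1. For IL6R and IRAK1 that is the sign that would give such opposite values, and for VCAM1 it is the other sign. For the other genes named here, the difference between the controls was called for IL18 (1.22), IL1R2 (1.02), TNFSF10 (0.52) and TNFAIP8 (0.34). It was not called for IL1R1 (-0.05), BCL3 (-0.12) or PTGS2 (0.36). Guide effects and control shifts cannot be told apart here.

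The direction was also examined within replicate numbers. Of the 18 genes called with the USP37 guides, 18 had the same sign in both replicate numbers that hold a control, and for 16 the 6 guide libraries and 2 control libraries did not overlap (CXCL2 and NFKBIA did). Among the 5525 genes called in this comparison (44.3% of all tested), 99.8% had one sign in both numbers and 82.1% had no overlap. Of the 20 called with the HIF2a guides, 19 had the same sign in all 3 numbers, CCL2 being the exception, and 8 had guide and control libraries apart. Among the 3819 genes called there (30.6% of all tested), 96.4% had one sign in all 3 numbers and 73.2% had no overlap. Agreement in sign among called genes is therefore near the background in both experiments.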

How the data were processed

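PolyA RNA of 786-O cells was read as paired 150-base reads from TruSeq libraries, per the labels' protocols. The authors deposited 1 table of 27315 genes in 17 libraries whose values had been variance-stabilised and batch-corrected, and so are close to log2. Per the submitters' processing notes, the tools were STAR 2.5.2b, cutadapt, DESeq2 and Salmon and the build was hg19, with no roles given. Depth is unknown. For every gene the means of the replicate numbers agree within 6.39e-14, so a replicate term had been removed from the values, which tends to make p-values too small. Replicate 1 holds no USP37_sgscr library, so its mean is over fewer groups than those of the other replicate numbers. Making these means equal can therefore also shift the replicate 1 values, and with them the USP37 differences and their spread. The size of such shifts was not tested.

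Genes with a mean at least 1 unit above the first percentile of gene means (5.14) were kept (12484), and limma 3.58.1 in R 4.3.3 was fitted once to 6 group means with a mean-variance trend, leaving 11 residual degrees of freedom. P-values were adjusted by Benjamini-Hochberg within each comparison and called under 0.05. The fit was tested on simulated data. The members, the gene lists and the rule for genes given in full (the largest changes called with each guide, the factors, NFKBIA, TNFAIP3, CXCL1, CXCL8, CCL2, IL6 and genes of opposite sign) were chosen with earlier results of these data known. Further values are shown for BIRC2. Groups came from the treatment labels. USP37_sgscr replicate 1 was not analysed here. A further renal marker is not reported here. Alternatives were other normalisations, filters, weights, a replicate block, single libraries left out and, added after seeing the data, leaving out 3 libraries and taking out chromosome medians.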

Additional observations from a re-analysis of the deposited data

Results flagged for a closer look

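The effect of the USP37 guides minus that of the HIF2a guides passed the test (limma, adjusted p under 0.05) for 17 of the 30 genes, against 38.6% of all genes, and each is listed for that reason, a difference between the experiments. On the log2 scale it was -2.06 for BIRC3, -1.69 for SOD2, -1.50 for CXCL5, -1.06 for CCL20, -0.76 for TNFRSF11B, -0.74 for CX3CL1 and -0.73 for TNFAIP2. Smaller values were -0.57 for IL32, -0.55 for TNFAIP3, -0.48 for NFKBIA, -0.44 for CSF1, -0.44 for RELB and -0.38 for NFKBIZ. In the other direction it was 0.62 for CXCL8, 0.84 for TRAF1, 1.16 for IL6 and 1.56 for CSF2. The calls of NFKBIZ, RELB, TNFAIP3 and TRAF1 were each lost when 1 of the control libraries was left out.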

How the results depend on the processing

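Of 60 differences (30 genes in 2 experiments), 38 were called and 20 kept their call under all 27 alternatives, with 3 more kept wherever they were tested (CCL20 and CXCL3 with the USP37 guides and TRAF1 with the HIF2a guides had no test under the stricter filter); of 1614 recomputed values, 76 lost the threshold, 4 gained it and 22 turned sign, none of them called. Leaving out single libraries gave 3683 to 5854 called genes in all for the USP37 guides (5525 with all libraries), 11 to 20 of the 30 genes for HIF2a_sg6 against HIF2a_sg4, and 5 to 11 for USP37_sg9 against USP37_sg3. Array weights, whose estimate stopped before full convergence, called 9 of the 30 genes with HIF2a_sg6 (14 without them), and no filter called 6 for USP37_sg9 against USP37_sg3; the causes were not tested. Signs turned for CCL20 in the HIF2a experiment (-0.12 with array weights, -0.04 with quantile normalisation, -0.17 without the 3 libraries), NFKB2 there (0.02 with array weights and with chromosome medians taken out), RELA there (-0.01 with chromosome medians out), and, in the USP37 experiment, LIF (-0.01 with chromosome medians out) and NFKBIZ (-0.03 with quantile normalisation). With single libraries left out, signs turned in part of the range for CCL20 (-0.20 to 0.10) and NFKB2 (-0.06 to 0.02) in the HIF2a experiment and for CX3CL1 (-0.07 to 0.28), LIF (-0.03 to 0.09), NFKBIE (-0.18 to 0.07), NFKBIZ (-0.05 to 0.08) and BIRC2 (-0.04 to 0.02) in the USP37 experiment. Whether replicate numbers pair the libraries cannot be judged, since a replicate term was already taken out of the values. With a replicate block 18 of the 30 genes were called with the USP37 guides (5069 of all genes), 16 with the HIF2a guides (3321) and 17 between the HIF2a guides. What depth limits cannot be given, since the values carry none.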
